A study of Mus musculus with 37 samples.

Results

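Within a group of 7 irradiated mouse lungs, 3 libraries held far more precursor ribosomal RNA than the other 4, and the RNA classes and gene detection of these libraries are described here. The measured gene is Rn45s, the transcript from which the large ribosomal RNAs are cut. The libraries were chosen by their Rn45s level in counts per 1000000 of all counts (CPM): those over 100000 CPM were taken as high, which gave 3 of the 7 libraries of the group (replicates 2, 5 and 6) and left 4 as low (replicates 1, 3, 4 and 7), of 37 libraries in the series. Rn45s stood at 216521, 127726 and 189818 CPM in high replicates 2, 5 and 6. It stood at 48066, 56402, 25011 and 21561 CPM in low replicates 1, 3, 4 and 7. The limit therefore fell between 56402 CPM (replicate 3) and 127726 CPM (replicate 5). These values chose the libraries, so no test is given for Rn45s.

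All 7 mice were C57BL/6 and received 0.75 Gy of a 5-ion beam made to resemble galactic cosmic radiation (GCR), without the nicotinamide riboside drink that some other groups had. Sources used here do not state age or time after exposure. Replicates 1 to 3 were male and 4 to 7 female by their labels, so the high libraries came from 1 male and 2 females and the low ones from 2 males and 2 females. The other 30 libraries are lungs of mock (0 Gy), silicon ion (0.75 Gy) and gamma ray (0.75 Gy) groups. Nicotinamide riboside, at 12 mM, was given to a further mock and a further silicon ion group, and to no gamma ray mice. These 30 serve here as libraries that the choice did not use. Since all 7 GCR mice had the same exposure, the split says nothing about radiation.

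RNA polymerase I transcribes the 45S precursor in the nucleolus, and it is then cut into the 18S, 5.8S and 28S ribosomal RNAs. Small nucleolar RNAs guide its chemical modification: box C/D RNAs direct 2′-O-methylation and H/ACA RNAs direct pseudouridylation. Most are released from the introns of host genes, many of which encode ribosomal proteins or translation factors. The cDNA kit used here (SMART-seq v4) primes with oligo(dT), whereas ribosomal and small nucleolar RNAs have as a rule no long poly(A) tail.

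The 6 small nucleolar RNA genes of smallest p between the high and low libraries are shown because small nucleolar RNAs make up most of the class whose values differ most clearly below. They are 3 H/ACA and 3 box C/D genes. Sequences and positions are from GENCODE M21 on GRCm38 (mm10), 5′ to 3′. Capitals mark the ACA box 3 bases before the end of an H/ACA RNA, or the C box (TGATGA) near the start and the D box (CTGA) near the end of a box C/D RNA. Snora81 (chr16:23110756-23110933, plus strand) lies in Eif4a2, which encodes a translation initiation helicase, and Snora23 (chr7:110046364-110046547, plus) lies in the nuclear import gene Ipo7. Snora16a (chr4:132309464-132309600, plus) lies in the noncoding host gene Snhg12. Snord17 (chr2:144265979-144266216, minus) lies in Snx5, Snord67 (chr2:91596070-91596180, plus) in Ckap5, and Snord49b (chr11:62603079-62603150, plus) in the noncoding gene 2410006H16Rik.
Snora81: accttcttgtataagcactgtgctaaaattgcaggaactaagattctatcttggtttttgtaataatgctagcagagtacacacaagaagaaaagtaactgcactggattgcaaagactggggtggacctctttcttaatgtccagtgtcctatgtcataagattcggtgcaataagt
Snora23: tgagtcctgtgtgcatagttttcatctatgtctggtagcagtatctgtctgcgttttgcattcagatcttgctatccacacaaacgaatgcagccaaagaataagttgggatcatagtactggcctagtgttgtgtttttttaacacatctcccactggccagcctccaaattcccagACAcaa
Snora16a: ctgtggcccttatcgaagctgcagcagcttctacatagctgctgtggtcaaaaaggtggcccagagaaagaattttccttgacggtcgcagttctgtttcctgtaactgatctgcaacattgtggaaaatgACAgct
Snord17: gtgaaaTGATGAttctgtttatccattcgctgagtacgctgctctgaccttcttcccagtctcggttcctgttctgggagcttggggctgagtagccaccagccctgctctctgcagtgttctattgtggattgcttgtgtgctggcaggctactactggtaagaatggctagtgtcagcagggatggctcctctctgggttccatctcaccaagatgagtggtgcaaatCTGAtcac
Snord67: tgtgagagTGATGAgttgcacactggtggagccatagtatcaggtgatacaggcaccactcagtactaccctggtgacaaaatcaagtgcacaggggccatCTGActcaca
Snord49b: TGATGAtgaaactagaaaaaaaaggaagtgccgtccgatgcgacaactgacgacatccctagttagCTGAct
The annotated Snora81 ends without an ACA at that place and has no capitals. Of the 36 H/ACA genes in the table, 30 (83.3%) had ACA exactly 3 bases before the end. Of 72 box C/D genes with a sequence, 44 (61.1%) had TGATGA within the first 20 bases and CTGA within the last 15. Only the strand of the gene was searched.

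Depth differed between high and low libraries. The high libraries had totals of 17433007, 16585139 and 9485197 counts, the 3 lowest of the group, against 26586165 to 66381526 in the low ones. Rn45s took 12.8% to 21.7% of the counts in the high libraries and 2.16% to 5.64% in the low ones, and for the shallowest library, replicate 6, the 95% Wilson interval was 18.96% to 19.01%. All values below are therefore shares or CPM of the counts without Rn45s, on which these libraries had between 7684732 and 64721258 counts. Intervals cover counting error only, because amplified reads carry no molecular identifiers. Lung markers were present in all 7 libraries, and the globin genes Hba-a1, Hba-a2, Hbb-bs and Hbb-bt were at 0 in all of them. Summed alveolar type 2 markers were at 5621, 9172 and 15229 CPM in the high libraries and at 16311 to 33720 CPM in the low ones, without overlap. The 5 markers did not all go this way: 4 had a lower and 1 a higher fitted value. All high libraries were below all low ones in 2 of the 5 and above them in 1. Over all genes detected these shares were 7.96% and 6.81%. GCR replicate 1, a low library, stood apart with 1283 CPM of summed neutrophil markers (35 to 77 in the other 6) and 29.5% of its counts in the club cell gene Scgb1a1 (8.97% to 21.7% in the others). Values without replicate 1 are given beside the results that it moved most.

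Small noncoding RNA genes were higher in the high libraries. The class joins 141 genes, namely 74 box C/D and 36 H/ACA small nucleolar RNAs, 9 small Cajal body RNAs, 13 other structured RNAs such as those of RNase P and RNase MRP, and 9 further small RNA genes. Together they took 0.0293%, 0.0149% and 0.0352% of counts in high replicates 2, 5 and 6. They took 0.00551%, 0.00498%, 0.00309% and 0.00311% in low replicates 1, 3, 4 and 7. The groups did not overlap, and the high mean of 0.0265% ± 0.0104 (SD, n = 3) was 6.35 times the low mean of 0.00417% ± 0.00126 (n = 4; exact permutation p = 0.0286, two-sided). That p is the smallest that 3 libraries against 4 can give, and the Benjamini-Hochberg value over 12 measures was 0.114. The shares rest on 2161 to 3999 counts in a high library and 913 to 1998 in a low one, and the 95% Wilson intervals of 0.0143% to 0.0156% (replicate 5, the lowest high one) and 0.00523% to 0.00581% (replicate 1, the highest low one) lie apart.

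H/ACA genes took 0.0154%, 0.00671% and 0.0158% of counts in high replicates 2, 5 and 6, against 0.00169%, 0.00204%, 0.00123% and 0.00117% in low replicates 1, 3, 4 and 7. Replicates 2 and 6 were about level, and replicate 5, with the least Rn45s of the 3, had the least. The ratio of means was 8.26. Snora81, Snora23 and Snora16a held 85.2%, 76.5% and 80.2% of the H/ACA counts in high replicates 2, 5 and 6, and 19.2% to 61.6% in the low ones. Box C/D genes took 0.00472%, 0.00362% and 0.0083% in the high libraries and 0.00153%, 0.00192%, 0.00139% and 0.00134% in the low ones, a ratio of 3.59, with replicate 6 well above the others. Both classes had exact permutation p = 0.0286 (two-sided, n = 3 and 4) and an adjusted p of 0.114. Without the 6 genes shown above, the ratios were 2.71 for H/ACA, 2.07 for box C/D and 4.06 for all small RNA genes, and the high libraries remained above the low ones in each. Whether the H/ACA ratio exceeded the box C/D ratio was not tested.

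**Figure D1:**
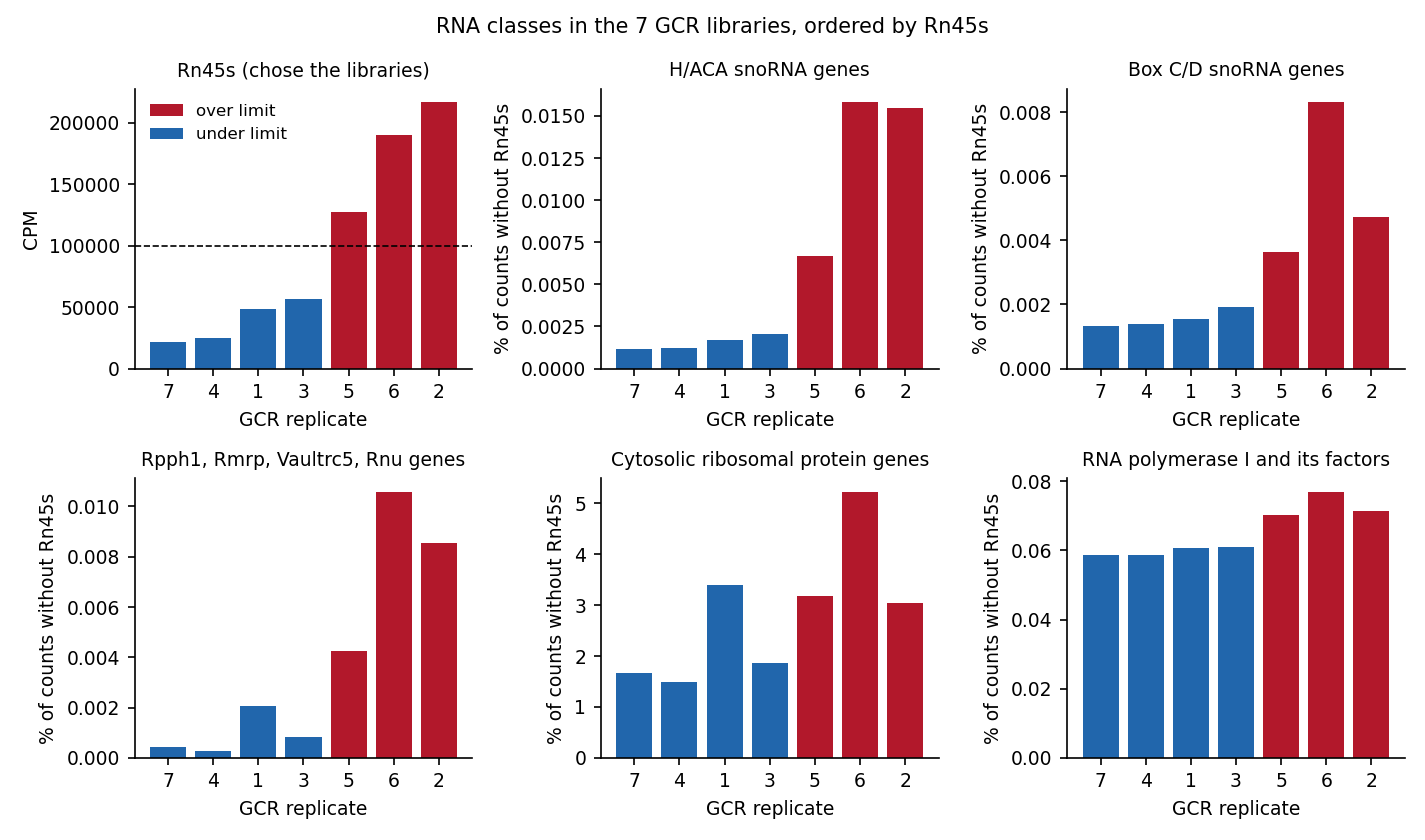
Bars give 1 value for each of the 7 GCR libraries, ordered by Rn45s from left to right; the first panel is in CPM of all counts with the limit of 100000 CPM as a dashed line, the others in percent of counts without Rn45s. The 3 libraries over the limit (red) exceed the 4 under it (blue) in every panel but that of the ribosomal protein genes, where replicate 1 reaches 3.40%.

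The 6 genes shown above were taken for their small p between these same libraries, so their separation follows from the choice and their values are a description. Snora81 stood at 92.1, 32.4 and 65.6 CPM in high replicates 2, 5 and 6 and at 6.80, 7.70, 2.72 and 1.87 CPM in low replicates 1, 3, 4 and 7. Its log2 fold change was 3.78 (SE 0.61; edgeR's quasi-likelihood test, Benjamini-Hochberg adjusted p = 0.0803). Every high library was above every low one. Snora23 stood at 19.3, 11.4 and 41.0 CPM in the high libraries and at 2.69, 1.34, 0.417 and 0.136 CPM in the low ones, a log2 fold change of 4.32 (SE 0.91). Snora16a stood at 20.3, 7.53 and 20.3 CPM against 0.909, 1.41, 0.664 and 0.238 CPM (4.40, SE 0.62). The box C/D gene Snord67, whose product guides modification of a spliceosomal RNA, stood at 14.6, 10.9 and 31.4 CPM against 2.85, 1.41, 0.386 and 0.442 CPM. Snord17 and Snord49b had fold changes of 3.19 and 3.84 on the log2 scale at lower levels, with 84 or fewer raw counts of either in a high library. None of the 6 overlapped between high and low libraries, and the lowest low values rested on as few as 4 counts (Snora23 in replicate 7).

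The edgeR test across all 15767 genes with enough counts called 0 genes at an adjusted p under 0.05 in either direction (0.0% of genes tested), and the smallest adjusted p was 0.0803. At an unadjusted p under 0.05, 1501 genes were higher in the high libraries (9.52% of genes tested) and 1730 were lower (11%). Without GCR replicate 1 the same test called 2111 genes, 1179 higher and 932 lower. With a sex term it called 46, 16 higher and 30 lower, and DESeq2 on all 7 libraries called 1471, 660 higher and 811 lower. All log2 fold changes within the group are therefore given as values that did not pass the main test. The 7 libraries may differ in tissue and RNA handling as well as in Rn45s, and these cannot be told apart.

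Of the 141 small RNA genes, 120 had a count in at least 1 of the 7 libraries. In 31 of these (25.8%) all 3 high libraries exceeded all 4 low ones, against 6.81% of the 20039 genes detected. In 6 (5.00%) all high libraries were below all low ones, against 7.96% of all genes. Only 35 passed the filter on low counts, a filter more easily passed through the group where a gene is high. Without replicate 1, 15 small RNA genes rose by edgeR's adjusted p, beside 1179 of all 15463 genes tested in that fit. Of the 35, 29 had a higher and 6 a lower fitted value, with a median log2 fold change of 1.93 beside -0.03 over all genes tested. With no count filter the median over the small RNA genes was 1.19, and by DESeq2 it was 1.28. Not all small RNAs were higher. Snord118 (U8), needed for the maturation of 28S and 5.8S ribosomal RNA, stood at 1.10, 1.31 and 0.781 CPM in the high libraries and at 1.30, 1.53, 0.742 and 1.23 CPM in the low ones. Its groups overlapped, with a log2 fold change of -0.08 (SE 0.58) whose sign depended on the fit. Snord96a, picked out after its values were seen, had a mean of 0.142 CPM in the high and 0.802 CPM in the low libraries, without overlap (-2.13, SE 0.89). This rests on 3, 3 and 0 raw counts in high replicates 2, 5 and 6, which were also the shallower libraries.

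The structured RNAs of RNase P and RNase MRP were also higher. Rpph1, the RNA of RNase P, which trims the 5′ ends of transfer RNAs, stood at 69.6, 32.8 and 76.8 CPM in the high libraries and at 14.4, 5.84, 1.75 and 2.62 CPM in the low ones. Its log2 fold change was 3.20 (SE 0.77; edgeR adjusted p = 0.0955). Rmrp, the RNA of RNase MRP, which cuts within the ribosomal RNA precursor, stood at 11.6, 6.15 and 19.4 CPM against 3.71, 1.60, 0.371 and 0.714 CPM (2.86, SE 0.82). In both genes the high libraries lay above the low ones, and replicate 1 was the highest of the low. The 13 genes of this kind together took 0.00426% to 0.0106% of counts in the high libraries and 0.000289% to 0.00207% in the low ones. The small Cajal body RNAs, which guide modification of spliceosomal RNAs, took 0.000311% to 0.000447% against 0.000116% to 0.000174%, on 27 to 76 counts a library.

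Small RNA genes were set beside the host genes that hold them. Of the 35 tested small RNA genes, 26 were matched by symbol to 1 of 24 tested host genes. In 20 of the 26 the small RNA had the larger log2 fold change. The median was 2.01 for the small RNAs and 0.47 for their hosts. Eif4a2, the host of Snora81, was at -0.57 and Ipo7, the host of Snora23, at -0.13. The host values ran from -0.57 to 1.46, the latter being the ribosomal protein gene Rps12. In 6 of the 26 pairs the order was the other way. It was also so for Snord96a (-2.13, SE 0.89) within Gnb2l1 (1.35). This pair was left out because the annotation lists that host under another symbol. A low-count small RNA passed the filter more easily when it was high in some libraries, which bears less on its abundant host, so the gap is partly set by the filter and is a description. With no count filter the small RNA had the larger value in 59 of 96 pairs matched by symbol, with medians of 1.19 and 0.35. Reads from an unspliced host intron also fall on the small RNA gene, and the counts do not tell them from the mature RNA.

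**Figure D2:**
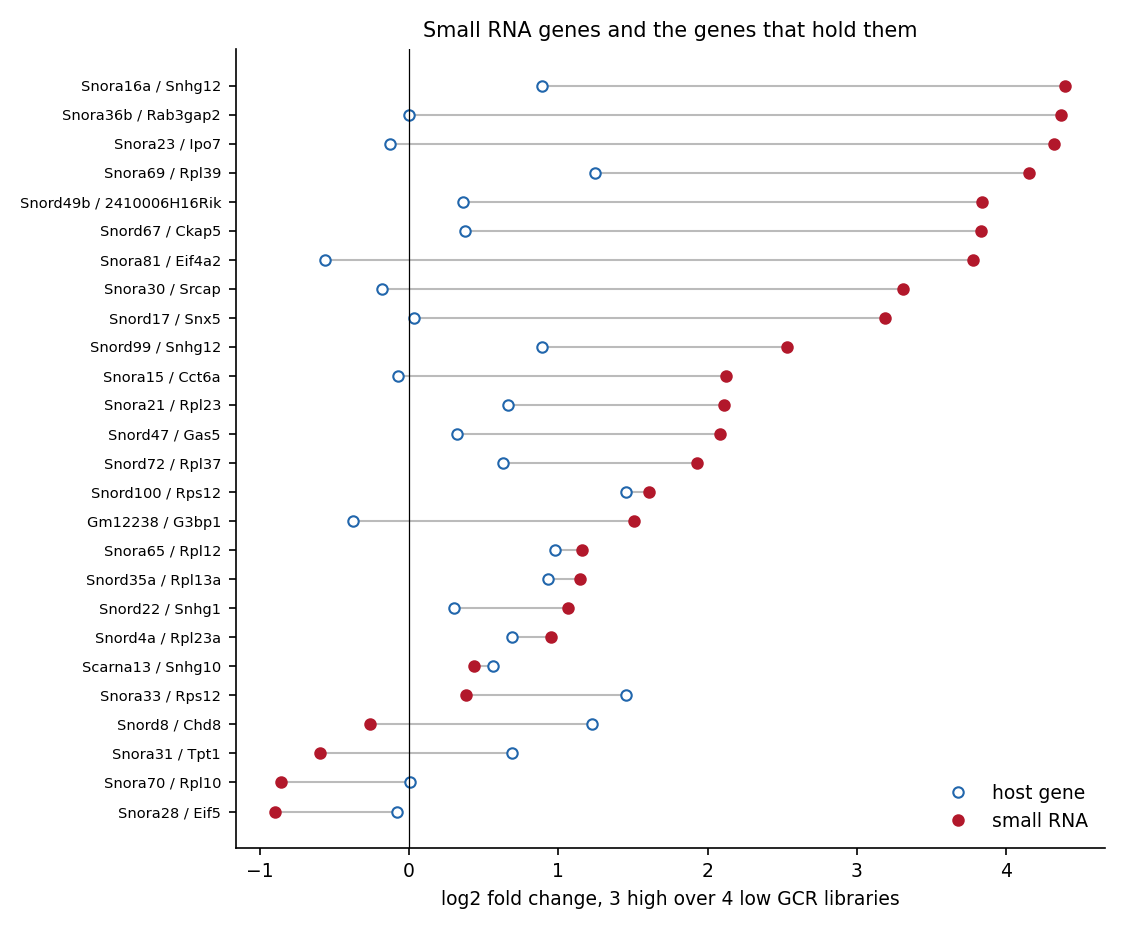
Each line joins 1 small RNA gene (filled red) to its host gene (open blue) for the 26 tested pairs matched by symbol. The horizontal axis is the edgeR log2 fold change of 3 high over 4 low GCR libraries. Red points lie to the right of blue ones in 20 pairs, with medians of 2.01 and 0.47, and no gene passed at an adjusted p under 0.05.

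Noncoding host genes of the Snhg family leaned higher by sign, but their summed share overlapped. It was 0.0433% to 0.0587% in the high and 0.0348% to 0.0485% in the low libraries, with high replicate 6 below low replicates 1 and 3. Of the 14 genes on this list, 12 had a higher and 2 a lower fitted value (median 0.27), and in 3 of 14 (21.4%) all high libraries were above all low ones, against 6.81% of all genes detected. Snhg9 was picked out after its values were seen. It stood at 47.6, 46.8 and 45.7 CPM in the high libraries and at 22.9, 17.3, 7.83 and 11.1 CPM in the low ones. The high libraries were nearly level and apart from the low ones, a log2 fold change of 1.66 (SE 0.43; edgeR adjusted p = 0.101).

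Genes that make and modify ribosomal RNA differed by less. The 17 genes of RNA polymerase I and its factors together took 0.0715%, 0.0702% and 0.077% of counts in high replicates 2, 5 and 6, and 0.0585% to 0.0608% in the low ones, without overlap. In 7 of the 17 (41.2%) all high libraries exceeded all low ones, against 6.81% of all genes detected. Ubtf, the factor that keeps ribosomal DNA open for transcription, stood at 90.1, 90.8 and 122 CPM against 73.4, 73.6, 75.5 and 69.6 CPM, a log2 fold change of 0.54 (SE 0.20). Polr1a, the largest polymerase I subunit, stood at 26.7, 26.5 and 26.4 CPM against 12.0, 21.03, 23.98 and 16.4 CPM (0.67, SE 0.20). The high libraries were above the low ones in both genes. The 48 pre-ribosomal processing factors were balanced, 23 higher and 25 lower (median -0.01), with Ncl, the nucleolar protein nucleolin, at 0.21 (SE 0.22).

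The proteins that bind small nucleolar RNAs did not move as a block. Of the 8 box C/D proteins 2 were higher and 6 lower (median -0.31), and of the 8 H/ACA proteins 6 were higher and 2 lower (median 0.21). Fbl, the methyltransferase fibrillarin, stood at 21.1, 17.7 and 14.7 CPM in the high libraries and at 18.4, 25.5, 31.8 and 25.4 CPM in the low ones, with overlap (-0.36, SE 0.22). Dkc1, the pseudouridine synthase dyskerin, had a log2 fold change of 0.24 (SE 0.24), also with overlap. Naf1, an assembly factor of H/ACA particles that was picked out after its values were seen, differed more. It stood at 45.1, 41.0 and 39.2 CPM in the high libraries and at 14.1, 19.9, 12.6 and 12.8 CPM in the low ones, a log2 fold change of 1.58 (SE 0.26; edgeR adjusted p = 0.0803).

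Genes of the cytosolic ribosomal proteins took 3.05%, 3.18% and 5.23% of counts in high replicates 2, 5 and 6 and 3.40%, 1.87%, 1.49% and 1.66% in low replicates 1, 3, 4 and 7. Replicate 1 overlapped the high libraries. The means were 3.82% ± 1.23 (SD, n = 3) and 2.11% ± 0.876 (n = 4; exact permutation p = 0.114, adjusted p = 0.294). Of the 87 genes measured, 83 were tested, and 74 had a higher and 9 a lower fitted value, with a median log2 fold change of 0.66. All high libraries exceeded all low ones in 18 of 85 detected (21.2%), against 6.81% of all genes detected. Without replicate 1 the median was 1.23 and 67 of these genes rose by edgeR's adjusted p, beside 1179 of all 15463 genes tested.

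Rplp1, an acidic stalk protein of the large subunit, stood at 1360, 1272 and 2819 CPM in the high libraries and at 1016, 507, 290.4 and 357.7 CPM in the low ones (log2 fold change 1.67, SE 0.57; edgeR adjusted p = 0.151). Rpsa, a small subunit protein, stood at 850.8, 828.9 and 1718 CPM against 629, 404, 322 and 318 CPM (1.42, SE 0.43). Rplp2 and Rps10 followed the same order at 1.33 and 1.39 (SE 0.44 and 0.49). Rps14, a small subunit protein, overlapped, since replicate 1 was at 1148 CPM and high replicates 2, 5 and 6 at 1148, 1111 and 2276 CPM. In each of these genes replicate 6 was the highest and replicate 1 the highest of the low libraries. Gnb2l1, which encodes the ribosome-bound protein RACK1, was picked out after its values were seen and had a log2 fold change of 1.35 (SE 0.45). Counts of ribosomal protein genes and their near-identical pseudogenes are uncertain, because sources used here do not state how reads that match several places were handled.

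Other groups of mostly short coding transcripts did not show this difference. The 77 mitochondrial ribosomal protein genes took 0.323% ± 0.0277 of counts in the high and 0.339% ± 0.0232 in the low libraries (SD, n = 3 and 4; exact permutation p = 0.486), with 35 higher and 42 lower. Of 77 tested subunits of oxidative phosphorylation 38 were higher and 39 lower (median -0.02). Among the 80 detected, all high libraries were below all low ones in 12 (15%) and above them in 5 (6.25%). The shares over all genes detected were 7.96% and 6.81%, so the subunits without overlap leaned lower. Replication-dependent histone genes, whose messengers end without poly(A), took 0.0215% ± 0.000779 against 0.0256% ± 0.00446 (exact permutation p = 0.143). Without replicate 1 the histone difference was -0.00191 percentage points, against -0.00406 with it. These p-values miss the threshold and do not show that the groups are equal.

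Coding genes were then divided by the length of their longest annotated transcript. Genes over 8000 bases leaned higher in the high libraries: of 819 tested, 640 had a higher and 179 a lower fitted value (median 0.39, quartiles 0.06 and 0.70). All high libraries exceeded all low ones in 192 of 891 detected (21.5%) and were below them in 15 (1.68%). Over all genes detected these shares were 6.81% and 7.96%. Genes of 4000 to 8000 bases had a median of 0.16. Genes of 2000 to 4000 bases had a median of -0.13, and those of 1000 to 2000 bases one of -0.25, with 1024 higher and 1984 lower. In the latter bin the high libraries were below all low ones in 528 of 3851 detected (13.7%) and above them in 137 (3.56%). The same shares over all genes detected were 7.96% and 6.81%. Genes under 1000 bases had a median of -0.02, and -0.06 without the ribosomal protein genes.

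As 1 value per library, the length differences depended on replicate 1. The mean of log2(CPM + 1) over the genes longer than 8000 bases was 4.05 ± 0.23 in the high and 3.84 ± 0.19 in the low libraries (SD, n = 3 and 4; exact permutation p = 0.343). For genes of 1000 to 2000 bases it was 2.59 ± 0.07 against 2.80 ± 0.19 (exact permutation p = 0.171). Replicate 1 had the lowest mean of the 7 in both bins and lay on the side of the high libraries in the shorter one. Without it the difference was 0.12 over 8000 bases, with overlap. In genes of 1000 to 2000 bases the high libraries, at 2.54 to 2.67, then lay below low replicates 3, 4 and 7, at 2.81 to 2.99. Genes of 2000 to 4000 bases had 2.93 to 3.05 against 3.22 to 3.43. Each of these 2 bins had an exact permutation p of 0.1, the smallest that 3 libraries against 3 can give. GC content of the transcripts went with the fold change less than length did, with medians from 0.02 under 45% GC to -0.09 over 55% GC.

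**Figure D3:**
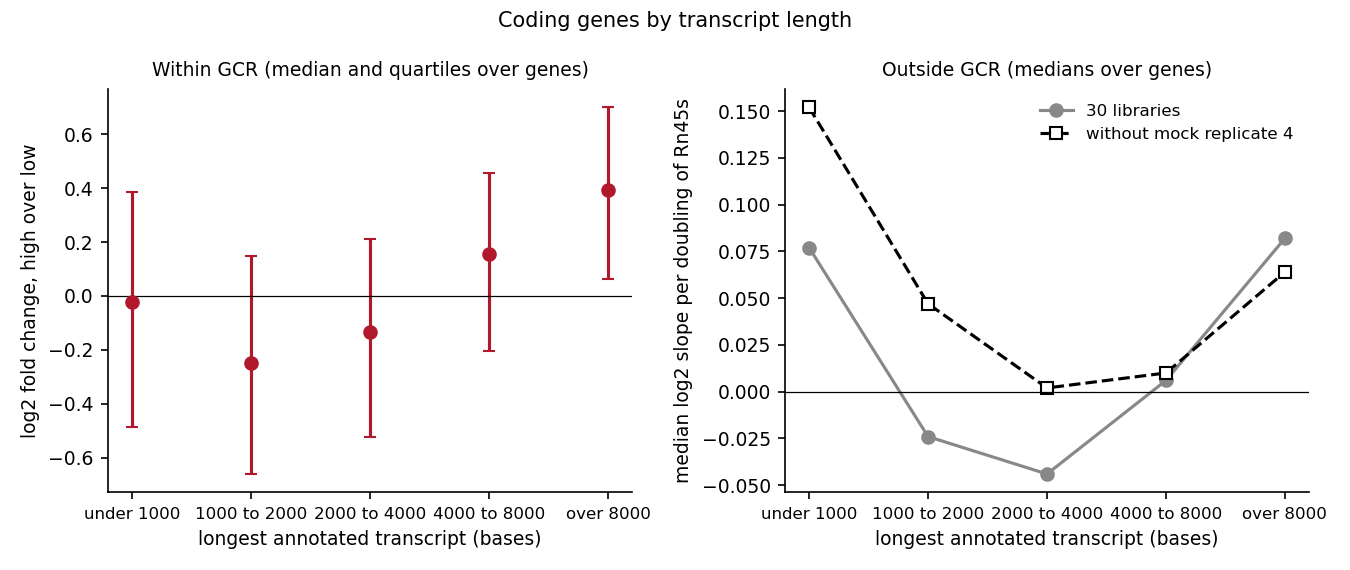
Coding genes by the length of the longest annotated transcript in bases. Left, median log2 fold change of high over low GCR libraries with quartiles over genes as bars (from -0.25 at 1000 to 2000 bases to 0.39 over 8000); right, median log2 slope per doubling of Rn45s over the 30 other libraries, and over 29 without mock replicate 4, where the shortest bin moves up to 0.15 and the longest to 0.06.

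The highest level among genes of large fold change was that of Lars2, the mitochondrial leucyl-tRNA synthetase, picked out after its values were seen. It stood at 111616, 67278 and 108507 CPM in the high libraries and at 17235, 27154, 7518 and 6984 CPM in the low ones, without overlap (log2 fold change 2.74, SE 0.69; edgeR adjusted p = 0.0958). Lars2 thus took 11.2%, 6.73% and 10.9% of the counts without Rn45s in high replicates 2, 5 and 6. Whether its reads share sequence with the ribosomal RNA precursor was not tested, since no Rn45s sequence was used here. Without Lars2 in the counts the test within the group again called 0 genes. The microRNA gene Mir6236 stood at 2115, 1553 and 1006 CPM against 349.9, 1215, 444.7 and 378.4 CPM, where low replicate 3 reached into the high range. The noncoding gene 2900060B14Rik stood at 268, 121 and 624 CPM against 35.4, 23.8, 6.12 and 5.85 CPM (4.15, SE 0.83), and Gm20594, a short predicted gene, had 3.41 (SE 0.56). The long nuclear RNAs Malat1 and Neat1, which stay in the nucleus, had log2 fold changes of -0.08 (SE 0.39) and 0.02 (SE 0.42). They belong to a list of 6 long nuclear RNAs, of which 5 had a higher and 1 a lower fitted value (median 0.695). The summed share of the 6 overlapped, at 1.26% to 1.29% in the high and 1.16% to 1.87% in the low libraries. Malat1 stood at 10998, 10693 and 11302 CPM in the high libraries and at 10607, 16406, 10304 and 12113 CPM in the low ones, with overlap.

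Some cell-specific genes followed the split as well. Lyz2, the lysozyme of macrophages and alveolar type 2 cells, stood at 169, 325 and 374 CPM in the high libraries and at 2726, 1957, 3310 and 4056 CPM in the low ones, a log2 fold change of -3.31 (SE 0.41; edgeR adjusted p = 0.0803). Igfbp7, a secreted binding protein abundant in vessels, stood at 14.1, 51.9 and 36.2 CPM against 205, 216, 457 and 364 CPM (-3.07, SE 0.43). The high libraries lay below the low ones in both genes, which were picked out after their values were seen. Scgb3a2, a club cell secretory protein also picked out after its values were seen, stood at 17657, 8566 and 6617 CPM against 4194 to 5729 CPM. Of the 3 club cell markers 1 had a higher and 2 a lower fitted value (median -0.08), and their summed level overlapped, at 103772 to 232348 CPM in the high and 137723 to 305455 CPM in the low libraries. Of the 5 endothelial markers 5 had a lower fitted value (median -0.31), and of the 4 ciliated markers 4 had a higher one (median 0.49). The summed levels of both overlapped, however. Endothelial sums were 375 to 1220 CPM in the high and 986 to 1179 CPM in the low libraries, and ciliated sums 426 to 963 against 445 to 592 CPM. High replicate 6 had the highest endothelial and the lowest ciliated sum of the 7. In bulk tissue, fewer cells of a type and less RNA per cell cannot be told apart, and the part of cell content in the RNA class differences was not tested.

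The high libraries had fewer detected genes than 3 of the 4 low ones, and were also shallower. At least 1 count was found for 17074, 17384 and 16452 genes in high replicates 2, 5 and 6 and for 16168, 18328, 19243 and 18379 in low replicates 1, 3, 4 and 7. Thinned to the 7684732 counts of the shallowest library, the expected numbers were 16679, 16924 and 16451 against 15573, 17286, 17636 and 17266. The thinned means were 16685 ± 237 (SD, n = 3) and 16940 ± 927 (n = 4), which overlap (exact permutation p = 0.686). The 3 high libraries lay below low replicates 3, 4 and 7, and low replicate 1 lay below all of them. Without replicate 1 the thinned difference was -711 genes. The 100 most abundant genes took 45.8%, 42.1% and 35.9% of the counts in the high libraries and 48.2%, 36.3%, 29.98% and 36.3% in low replicates 1, 3, 4 and 7.

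**Figure D4:**
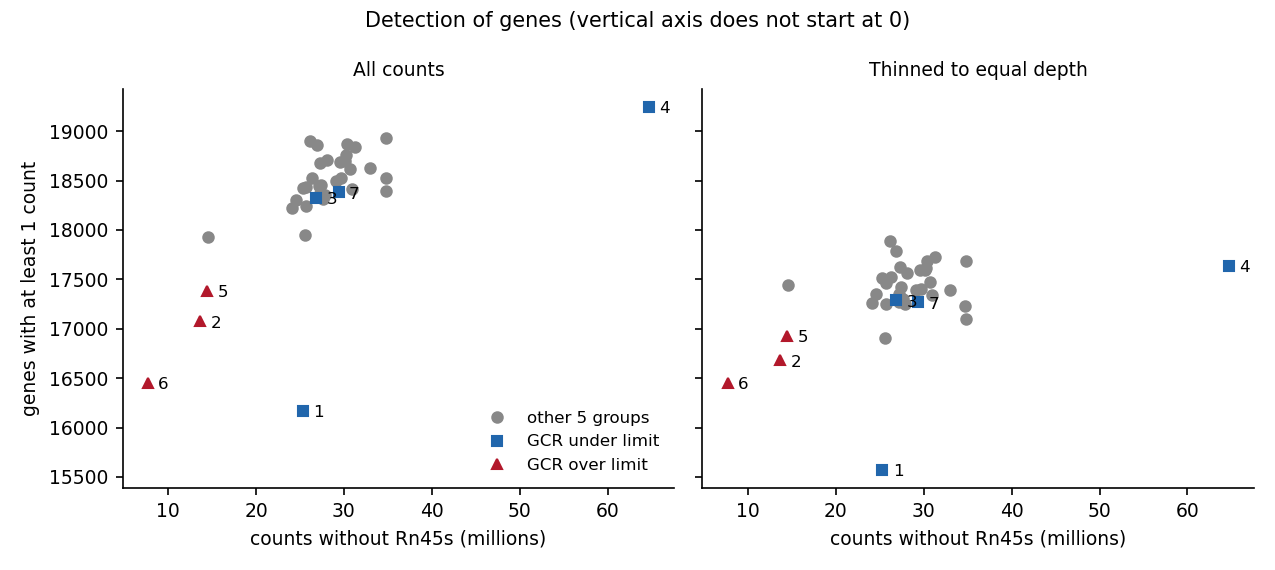
Genes with at least 1 count against the counts without Rn45s, in units of 1000000, for all counts (left) and thinned to 7684732 counts (right); numbers are GCR replicates. The high libraries (triangles) move from 16452 to 17384 genes on the left to 16451 to 16924 on the right, still under GCR replicates 3, 4 and 7, and GCR replicate 1 is the lowest in both.

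The 30 libraries of the other 5 groups were not used by the choice and served as a separate set. In them Rn45s ran from 10751 CPM (gamma replicate 3) to 64528 CPM, apart from mock replicate 4 at 200006 CPM. An edgeR quasi-likelihood fit of each gene on log2 Rn45s, with group and sex as terms, tested 17461 genes. It called 1108 genes that rose with Rn45s (6.35% of genes tested) and 903 that fell (5.17%). Without mock replicate 4, it called 944 that rose (5.49% of 17202) and 1029 that fell (5.98%), and 885 of these 1973 genes were also among the first 2011. Most of the genes called in these libraries therefore depended on whether mock replicate 4 was present.

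Genes called in the 30 libraries mostly had the same sign within GCR, in a fit that shares no library with them. Of the 1108 that rose, 1086 were tested within GCR, and 997 of these (91.8%) had a higher fitted value in the high libraries, against 47.9% of all genes tested. In 470 (43.3%) the high libraries exceeded all low ones, against 8.3% of genes tested. Of the 881 tested among those that fell, 759 (86.2%) were lower in the high libraries and 205 (23.3%) without overlap, against 52.1% and 9.4% of genes tested. With genes called without mock replicate 4, the shares of the same sign were 80.5% and 81.3%. Across the 15754 genes tested in both fits the effects had Pearson's r = 0.35 and Spearman's rho = 0.44, or 0.27 and 0.32 without mock replicate 4. Genes are not independent replicates, so these are descriptions.

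Small noncoding RNA genes rose with Rn45s outside GCR too. Their summed share and Rn45s, both on a log2 scale, had Pearson's r = 0.70 over 30 libraries (permutation p = 2e-05, adjusted p = 0.00024 over 12 measures) and Spearman's rho = 0.72 (permutation p = 6e-05, adjusted p = 0.00066). Without the 2 libraries farthest from the median Rn45s, gamma replicate 3 and mock replicate 4, r was 0.67. Within groups r was 0.89 in mock (n = 7, mock replicate 4 included), 0.51 in silicon (n = 7) and 0.95 in silicon with nicotinamide riboside (n = 6). For H/ACA genes r was 0.57 (permutation p = 0.00101, adjusted p = 0.00606; rho 0.67, permutation p = 0.00011) and 0.70 without the 2 farthest libraries. For box C/D genes r was 0.49 (permutation p = 0.00651, adjusted p = 0.0156; rho 0.41, permutation p = 0.0266) and 0.29 without those 2 libraries, so the pooled r rests on them. Within groups the box C/D r was 0.81 in mock (mock replicate 4 included), 0.43 in silicon and 0.67 in silicon with nicotinamide riboside.

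The fit of single genes gave counts of the same kind. Of 50 small RNA genes tested in the 30 libraries, 13 rose with Rn45s (26%, against 6.35% of all genes tested) and 0 fell. Without mock replicate 4 the count was 9 of 42 (21.4%, against 5.49%). Snora81 ran from 0.481 to 15.5 CPM (median 2.63) and rose by 1.10 on the log2 scale per doubling of Rn45s (SE 0.25; edgeR adjusted p = 0.00438). Snora16a had a slope of 1.24 (SE 0.21), Snord67 one of 1.20 (SE 0.28), Snora23 one of 0.95 (SE 0.24) and Snord17 one of 0.55 (SE 0.16), all called. Snord49b had a slope of 0.35 (SE 0.26; edgeR adjusted p = 0.442). Rpph1 rose by 1.03 (SE 0.12) and Rmrp by 0.88 (SE 0.16) per doubling. Of the 39 small RNA genes matched by symbol to a tested host, 9 rose, and for 23 of the 39 the host was called as rising. The median slopes were 0.24 for the small RNAs and 0.26 for the hosts. Snord96a (-0.02) and Snord95 (-0.29), which lie within Gnb2l1 (0.28), were not matched.

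Mock replicate 4 had as much Rn45s as the high GCR libraries but not their small RNA level. Its small noncoding RNA share was 0.00514% (750 counts, 95% Wilson interval 0.00479% to 0.00552%), within the range of 0.002% to 0.00637% of the other 29 libraries and the fourth highest of 30. The lowest high GCR library was at 0.0149%. Its H/ACA share of 0.00138% was the 17th highest of 30, beside 0.00671% to 0.0158% in the high GCR libraries. Snora81 stood at 2.67 CPM in mock replicate 4 and at 32.4 to 92.1 CPM in the high GCR libraries. Lars2 in contrast was at 7.22% of counts in mock replicate 4, inside the 6.73% to 11.2% of the high GCR libraries and above the 0.316% to 2.40% of the other 29. Mir6236 at 2269 CPM, the summed RNA polymerase I genes at 0.0853% and the noncoding small nucleolar RNA hosts at 0.0683% were each the highest of the 30. Malat1 stood at 56539 CPM in mock replicate 4, against at most 16406 CPM in the GCR libraries. With 1 such library outside GCR this contrast has no replicate and no test.

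**Figure D5:**
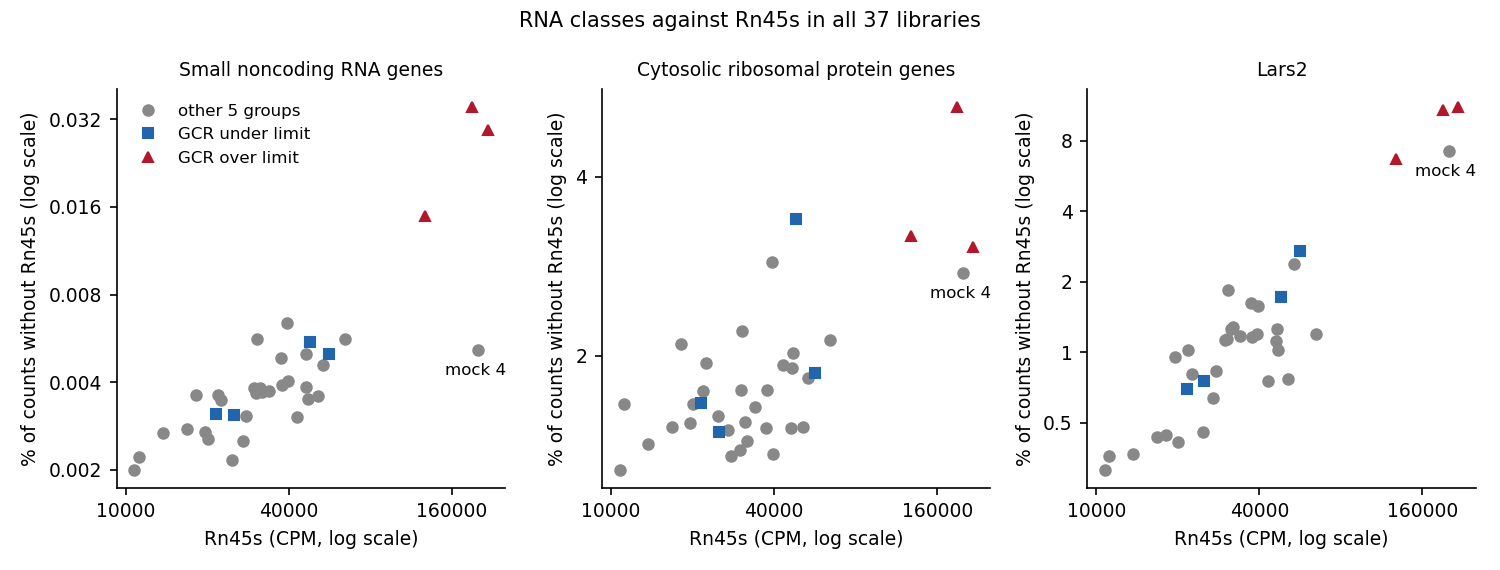
All 37 libraries by Rn45s (horizontal, CPM, log scale) and by the share of counts without Rn45s (vertical, percent, log scale) of small noncoding RNA genes, cytosolic ribosomal protein genes and Lars2. Mock replicate 4 lies at 0.00514% in the first panel, far below the high GCR libraries (triangles, 0.0149% to 0.0352%), and among them at 7.22% in the third.

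Most cytosolic ribosomal protein genes rose with Rn45s outside GCR. Of 84 tested, 62 were called as rising (73.8%, against 6.35% of all genes tested) and 1 as falling, with a median slope of 0.24 per doubling. Without mock replicate 4 the counts were 53 (63.1%, against 5.49%) and 0 of 84. In the 17 libraries with at most 1000 CPM of the muscle actin gene Acta1, 4 of these genes were called as rising, with a median slope of 0.23. Of the small RNA genes 4 were called as rising there, with a median of 0.51. Over all 16967 genes tested in that fit, 734 rose and 471 fell. For the ribosomal protein genes, 87 in all, the count in that fit was thus near the background. Rplp1 had a slope of 0.34 (SE 0.05; edgeR adjusted p = 0.000175), Rps10 one of 0.39 (SE 0.05), Rpl13a one of 0.36 (SE 0.06) and Rpsa one of 0.21 (SE 0.07). Gnb2l1 rose by 0.28 (SE 0.06). The summed share had r = 0.52 with Rn45s (permutation p = 0.00429, adjusted p = 0.0129; rho 0.36, permutation p = 0.0512) and 0.25 without the 2 farthest libraries, so the pooled r rests on them. Within groups r was 0.88 in mock (n = 7, mock replicate 4 included), 0.34 in silicon (n = 7) and 0.75 in silicon with nicotinamide riboside (n = 6). The silicon groups hold neither of those libraries. With group means removed r was 0.62, over all 30 libraries and so with those 2 included. Mock replicate 4 had 2.76% of its counts in these genes, the second highest of 30.

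Of the genes around the nucleolus, 5 of the 17 for RNA polymerase I and its factors rose with Rn45s (29.4%), against 6.35% of all genes tested. Without mock replicate 4 it was 1 of 17, against 5.49% of all genes tested, a share near the background. Ubtf had a slope of 0.13 (SE 0.03; edgeR adjusted p = 0.0116) and Polr1a one of 0.12 (SE 0.07), which did not pass. Of the noncoding small nucleolar RNA host genes 11 of 14 rose (78.6%), 9 of 14 without mock replicate 4, with Snhg9 at 0.63 (SE 0.09). Ncl rose by 0.26 (SE 0.05) and Naf1 by 0.28 (SE 0.09; edgeR adjusted p = 0.0364), while Fbl at 0.07 (SE 0.07) and Dkc1 at 0.06 (SE 0.08) were not called. Lars2 rose by 1.02 (SE 0.11; edgeR adjusted p = 3.28e-06) per doubling, Gm20594 by 0.83 (SE 0.10), 2900060B14Rik by 1.02 (SE 0.16) and Mir6236 by 0.73 (SE 0.09). Of the oxidative phosphorylation subunits 0 of 77 rose by edgeR's adjusted p, and of the mitochondrial ribosomal proteins 3 of 77. Of the 6 long nuclear RNAs 3 rose (50%, against 6.35% of all genes tested), and 1 without mock replicate 4 (16.7%, against 5.49%). Malat1 had a slope of 0.50 (SE 0.11, edgeR adjusted p = 0.00272), but of 0.12 (SE 0.15) without mock replicate 4.

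The length pattern of the GCR libraries was shared in some bins and not in others. Of 859 tested coding genes over 8000 bases, 149 rose (17.3%) and 10 fell (1.16%) in the 30 libraries, against 6.35% and 5.17% of all genes tested. Without mock replicate 4, however, the counts were 60 and 35 of 851. The library mean of this bin had r = 0.10 with Rn45s (permutation p = 0.605; rho -0.29, permutation p = 0.12), and r was -0.35 without mock replicate 4, the other direction. Genes of 4000 to 8000 bases had an edgeR median of 0.16 within GCR and of 0.007 per doubling of Rn45s outside it. Their library mean, which unlike the edgeR values has no TMM scaling, differed by 0.02 within GCR (exact permutation p = 0.914). Outside GCR this mean had r = -0.36 (permutation p = 0.0564, adjusted p = 0.0968) and rho = -0.57 (permutation p = 0.00132, adjusted p = 0.00396). Without the 2 farthest libraries r was -0.58. Of 4406 genes in that bin 333 rose and 176 fell, but without mock replicate 4 the counts were 214 and 274 of 4368. For coding genes of 2000 to 4000 bases r was -0.54 (permutation p = 0.00265, adjusted p = 0.0106; rho -0.63, permutation p = 0.00018) and -0.52 without the 2 farthest libraries. In genes of 1000 to 2000 bases r was -0.42 (permutation p = 0.021, adjusted p = 0.0421; rho -0.40, permutation p = 0.0299) and -0.34 without those 2. Of 3368 genes in that bin 140 rose (4.16%) and 184 fell (5.46%), near the shares of all genes tested. Without mock replicate 4 the counts were 195 and 188 of 3326. Under 1000 bases 99 genes rose and 13 fell of 943, and with the ribosomal protein genes left out 60 rose. Detection at equal depth had r = -0.003 with Rn45s (permutation p = 0.988; rho 0.01, permutation p = 0.958), and mock replicate 4, at 17441 genes, was 15th of 30.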

How the data were processed

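Total RNA of 37 mouse lungs was made into cDNA with the SMART-seq v4 kit and into libraries with Nextera XT, per the labels' protocols. The submitters' processing notes name FastQC 0.11.4, MultiQC 1.12, Trimmomatic 0.36, STAR 2.5.2, HTSeq 0.13.5 and build mm10; sources used here do not state settings, annotation or strand. The authors deposited whole-number read counts for 24421 gene symbols, not normalized. Groups and sex came from the labels, and replicate numbers only name mice. No 2 GCR libraries agreed within sampling noise (chi-square over its degrees of freedom at least 74.8).

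Rn45s was removed before all totals and tests. Coordinates, lengths and sequences were taken from GENCODE M21, which matched 24050 symbols. Genes were tested with edgeR 4.0.16 in R 4.3.3 (quasi-likelihood, TMM, filterByExpr, Benjamini-Hochberg adjustment, called under 0.05), over the 7 GCR libraries and, with log2 Rn45s, group and sex as terms, over the other 30. Log2 fold changes are high over low. Class shares were compared by exact permutation over 35 assignments, and correlations by permutation with 100000 resamples (scipy 1.17.1), adjusted over 12 measures. A pseudocount of 1 CPM was used for means of log2 values. Thinned gene numbers are expectations from the hypergeometric formula. The edgeR test was also run on counts simulated with its own fitted spread for each gene. No simulated library was made to stand apart, so that run cannot bear on the change without replicate 1.

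The libraries, classes and lists were chosen with earlier results of these data known. Named genes are the 6 small RNA and 4 ribosomal protein genes of smallest p, and Snora81, Rpph1, Rmrp, Rplp1, Rps14, Rpl13a, Ubtf, Polr1a, Fbl, Ncl, Dkc1, Malat1 and Neat1 whatever their values; Rn7sk, also on this list, was not analysed here. The rule would also have taken called genes, of which there were 0. Lars2, 2900060B14Rik, Gm20594, Mir6236, Scgb3a2, Naf1, Igfbp7, Lyz2, Snord118, Snord96a, Snhg9, Gnb2l1 and the hosts Eif4a2, Ipo7 and Rps12 were named after their values were seen. No sequence of Rn45s was used, so genes sharing sequence with it were not sought, and mitochondrially encoded genes were not analysed here. Alternatives were DESeq2 1.42.0, limma 3.58.1 voom with quality weights, RLE size factors, no count filter, Rn45s kept, a sex term or none, all 37 libraries, other scales and minimum levels, and leaving out each GCR library or mock replicate 4.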

Additional observations from a re-analysis of the deposited data

Results flagged for a closer look

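These values stood apart from the rest of their group by Dixon's criterion, that is, the gap to the nearest library was an unusually large part of the group's range. Chance alone gives this in about 1 in 20 groups. Rn45s in mock replicate 4, at 200006 CPM, stood apart among the 7 mock libraries. GCR replicate 6 was the high one of the 7 GCR libraries for Rpsa (1718 CPM), Rplp1 (2819 CPM), Rps14 (2276 CPM), Ubtf (122 CPM), Gnb2l1 (1321 CPM) and 2900060B14Rik (624 CPM), and for the summed skeletal muscle markers (101.5 CPM). It also has the lowest total of the series. GCR replicate 2 was the high one for Scgb3a2, at 17657 CPM. GCR replicate 3 was the high one for Malat1, at 16406 CPM, and, among the 4 low libraries, for Mir6236, at 1215 CPM.

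GCR replicate 1 was the high one for the share of replication-dependent histone genes, at 0.032%, and, among all 7 and among the 4 low libraries, for the summed neutrophil markers S100a8, S100a9 and Csf3r, at 1283 CPM. GCR replicate 4, the deepest library, was the high one for the summed markers of B cells (221.7 CPM), cardiac muscle (4592 CPM), squamous epithelium (20.1 CPM) and mesothelium (222.8 CPM). For B cell, squamous and mesothelial markers it also stood apart among the 4 low libraries. The Snora81 host Eif4a2 was low in GCR replicate 1, at 114 CPM, beside the other 3 low libraries.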

How the results depend on the processing

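Fits without Lars2, without Lars2 and Scgb1a1, without the libraries over 1000 CPM of Acta1, and without the 6 named small nucleolar RNA genes were chosen after the data were seen, and the cause of each change below was not tested. Within GCR, 0 genes were called by the reported test, with RLE size factors, with Rn45s kept, without Lars2 and without each of replicates 2 to 7, and 1 was called with no count filter, 46 with a sex term, 1471 by DESeq2, 1952 in a fit of all 37 libraries, 3701 by limma voom and 2111 without replicate 1 (0 to 2111 over the libraries left out). The difference in small RNA share stayed between 0.0179 and 0.0281 percentage points whichever GCR library was left out, and that in H/ACA share between 0.00954 and 0.0141. The ribosomal protein difference stayed between 1.01 and 2.15. Genes near 0 changed sign: Malat1 to 0.0043 (voom) and 0.014 (sex term), with -0.21 to 0.050 over the GCR libraries left out; Snord118 to 0.45 (voom) and 0.065 (sex term), with -0.31 to 0.16; Neat1 with -0.22 to 0.37; and Ipo7 with -0.41 to 0.039. The mean difference of the 4000 to 8000 base genes (0.02) was -0.15 with Rn45s kept, and -0.084 and -0.061 without replicates 1 and 6 (range -0.084 to 0.089). That of the 2000 to 4000 base genes was 4.24 percentage points as a share of counts, against -0.16 on the log2 scale. This bin holds Lars2 (3894 bases), with means of 95800 CPM in the high and 14723 CPM in the low libraries. The mitochondrial ribosomal protein difference (-0.0156) became 0.0135 without Lars2, 0.0093 without Lars2 and Scgb1a1, and 9.38e-05 without replicate 6 (range -0.0263 to 9.38e-05). The thinned gene difference ran from -711 to -23.7. Outside GCR, 1205 genes were called without the libraries rich in Acta1, 353 of them among the 2011, and there Polr1a and Dkc1 stood at -0.00060 and -0.13. Correlations with Rn45s without mock replicate 4 were 0.40 for box C/D (adjusted permutation p = 0.079), 0.34 for ribosomal proteins, and -0.33, -0.58 and -0.35 for genes of 1000 to 2000, 4000 to 8000 and over 8000 bases. With Rn45s kept they were 0.37 for box C/D, 0.39 for ribosomal proteins, and -0.11, -0.63 and -0.23 for genes under 1000, of 4000 to 8000 and over 8000 bases. Histone genes had 0.44 with group means removed. Without Lars2 and Scgb1a1 the values were 0.60 for histones, 0.10 for mitochondrial ribosomal proteins, and 0.47, -0.18 and -0.34 for genes under 1000, of 1000 to 2000 and of 2000 to 4000 bases. No paired analysis was possible because the comparison splits 1 group by a measured value and its libraries share no replicate numbers. Small RNA genes of a few counts in a low library are the least precise.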
